A study of Mus musculus with 6 samples.

Results

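The DNA replication and S phase genes are 48 genes that copy the genome or supply, guide and finish that copying. They were chosen by gene symbol from a fixed list of names. That list, and the other gene lists used below, were chosen with earlier results of these data known. All 48 have a row among the 54532 genes of the deposited FPKM table (fragments counted on a gene, scaled by its length and by the depth of the library). They were placed in 5 roles, with 16 in licensing and helicase, 15 in polymerase and clamp, 6 in single-strand binding and maturation, 5 in nucleotide supply and uracil removal, and 6 in chromatin copying and S phase control.

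The study asked how loss of *Myh9*, which encodes the heavy chain of non-muscle myosin IIA, acts on hematopoietic stem and progenitor cells. RNA was sequenced from 6 libraries of bone marrow LSK cells (lineage negative, Sca1 positive and c-Kit positive), sorted from C57BL/6 mice. The 3 CTRL libraries, called control here, came from Myh9fl/fl;no cre littermates, and the 3 cKO libraries, called *Myh9*-deficient here, from Myh9fl/fl;Mx1-cre mice. Mice of both groups carried the floxed allele, were genotyped at 4 to 5 weeks of age and received poly I:C, in 2 doses of 5 mg/kg by the labels (the study's methods give another number of doses), with cells taken on day 4 after the first injection. *Mx1-cre* is switched on by interferon, which poly I:C induces, and is not limited to blood cells. Each library was made from 100000 sorted cells. The study describes the libraries of a group as independent sets of sorted cells. The number of mice behind a set is not given in the sources used here, so p-values measure the spread between these libraries, which may in part be technical.

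Before a cell copies its DNA, the origin recognition complex, CDC6 and CDT1 load the ring of MCM2-7 proteins onto replication origins, a step called licensing. In S phase, CDC45 and the GINS complex join the ring to form the active helicase, polymerase alpha-primase lays down primers, and polymerases delta and epsilon extend them while held on the template by the sliding clamp PCNA, which is loaded by RFC. Single strands are covered by RPA, Okazaki fragments are joined by FEN1 and DNA ligase I, ribonucleotide reductase and thymidylate synthase make the building blocks, and CAF-1, UHRF1 and DNMT1 restore chromatin and DNA methylation behind the fork. Many of these genes are transcribed under E2F factors in late G1 phase, and most adult stem cells in bone marrow are not in cycle while progenitors divide often.

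The promoter sequences of the licensing and helicase genes are shown first, since this role held the most members that fell and the most with an E2F-type motif. Promoter windows of 300 bases, from 250 before to 50 after the transcription start (RefSeq, GRCm38.p6), were available for 40 of the 48 members, all but *Mcm4*, *Gins1*, *Gins2*, *Gins4*, *Prim2*, *Pole*, *Rfc2* and *Tipin*. The motif was searched as TTTCCCGC, TTTCGCGC, TTTGCCGC and TTTGGCGC on both strands, and matches on opposite strands can overlap. One stretch per gene is given below, 5′ to 3′ on the strand of the gene, with the matches in capitals and at most 30 bases past the start. The licensing and helicase genes shown all fell. *Orc1*, which did not pass the test, and *Cdt1*, which fell, also held a match and are not shown. *Mcm3* and *Mcm7* each held 2 matches, of which 1 is shown. *Rfc3* is added as the one member with a match among the 5 that rose and had a window.
*Mcm3* (chr1:20820283-20820308, minus strand): ccataaacttccgtgGCGGGAAAact
*Mcm5* (chr8:75109341-75109382, plus strand): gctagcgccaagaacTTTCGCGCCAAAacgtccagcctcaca
*Mcm6* (chr1:128359730-128359830, minus strand): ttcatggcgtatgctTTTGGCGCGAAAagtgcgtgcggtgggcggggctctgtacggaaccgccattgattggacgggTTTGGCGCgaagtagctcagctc
*Mcm7* (chr5:138172026-138172063, minus strand): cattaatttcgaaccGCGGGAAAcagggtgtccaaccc
*Cdc6* (chr11:98907998-98908035, plus strand): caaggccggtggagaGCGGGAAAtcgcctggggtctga
*Gins3* (chr8:95633503-95633540, plus strand): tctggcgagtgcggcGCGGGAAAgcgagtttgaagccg
*Rfc3* (chr5:151651186-151651233, minus strand): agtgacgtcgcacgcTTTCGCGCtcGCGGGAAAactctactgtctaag

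In *Mcm6*, 3 matches lay before the start, and the first and second of them overlapped on opposite strands, as did both matches of *Mcm5*. Of the 40 members with a window, 16 held a match (40%), against 704 of 27025 genes (2.60%) and 744 of 32851 windows (2.26%). By role, a match was found in 8 of 12 licensing and helicase genes (also *Orc1* and *Cdt1*), in 5 of 12 polymerase and clamp genes (*Pola1*, *Pold1*, *Pold3*, *Pole2* and *Rfc3*), in 1 of 5 single-strand binding and maturation genes (*Lig1*), in 2 of 6 chromatin copying and S phase control genes (*Uhrf1* and *Dnmt1*) and in 0 of 5 nucleotide supply genes. By change in expression, it was found in 13 of 21 members that fell, in 1 of 5 that rose and in 2 of 14 that did not pass the test. Mitosis genes were searched in the same way, also for the CHR motif of late cell cycle promoters. The CHR motif TTTGAA was in 32 of 42 mitosis genes with a window, in 6 of 40 members and in 20.2% of all genes, and the E2F-type motif was in 3 of the 42 mitosis genes and in 8 of 42 other replication genes with a window (19%). A match is a description of the letters in this window and shows no binding.

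Each library held between 17571544 and 19894562 reads on genes, and each member was covered by 268 (*Orc1*) to 12025 (*Pcna*) reads per library. *Myh9* itself was at 23, 22.6 and 22 FPKM in the control and 18.4, 19.96 and 17.7 FPKM in the *Myh9*-deficient libraries, lower in every *Myh9*-deficient library (log2 fold change -0.26 ± 0.05 SE, adjusted p = 0.00642). Its log2 fold change was -0.12 (adjusted p = 0.0468) once GC and length trends were removed. The floxed part is exon 1, and a value over the whole gene keeps reads of the other exons. The 2 defining genes of the LSK gate were present in both groups, *Kit* at 23.4 to 24.3 FPKM in control libraries against 21.2 to 21.8 in *Myh9*-deficient ones, and *Ly6a*, which encodes Sca1, at 93.2 to 96.7 against 85.4 to 92.3. Markers of other lineages differed between the groups. Of 16 erythroid markers tested, 15 were higher in *Myh9*-deficient LSKs and 1 was lower, and the sum over all 20 listed was 712 to 714 FPKM in control libraries against 1201 to 1240 FPKM. Of 14 neutrophil and monocyte markers tested, 13 were lower and 0 higher, and the sum over 16 listed was 11012 to 11081 FPKM against 6245 to 6359. Among the other lists, 5 of 6 megakaryocyte, 5 of 7 mast cell and basophil, 4 of 6 T and NK cell, 3 of 7 B and plasma cell and 5 of 11 LSK markers were higher, and 0, 0, 1, 2 and 1 were lower. *Gp1bb* and *Tpsab1* were at 0 in all libraries, and *Cd3e*, *Cd8a*, *Ms4a1*, *Pax5* and *Slc4a1* were under 0.5 FPKM. The part of these lineage markers in the changes of the replication genes was not tested, and in bulk RNA fewer cells of a type and less RNA per cell cannot be told apart.

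Expression of the replication genes was lower in *Myh9*-deficient LSKs for 24 members and higher for 6, while 18 did not pass the test (limma on log2(FPKM + 1), adjusted p under 0.05 over 11552 genes averaging 1 FPKM or more, a filter that all 48 members passed). The share of members called lower was 50%, against 20.6% of all genes tested, and the share called higher was 12.5%, against 19.9%. The changes were small. They ran from -0.49 (*Ung*) to 0.24 (*Dut*) on the log2(FPKM + 1) scale, 0 members changed by more than 2-fold, and the median over the 48 was -0.16, against -0.01 over all genes tested. Replicates were close to each other, with a median coefficient of variation of 2.17% among control and 3.03% among *Myh9*-deficient libraries.

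**Figure D1:**
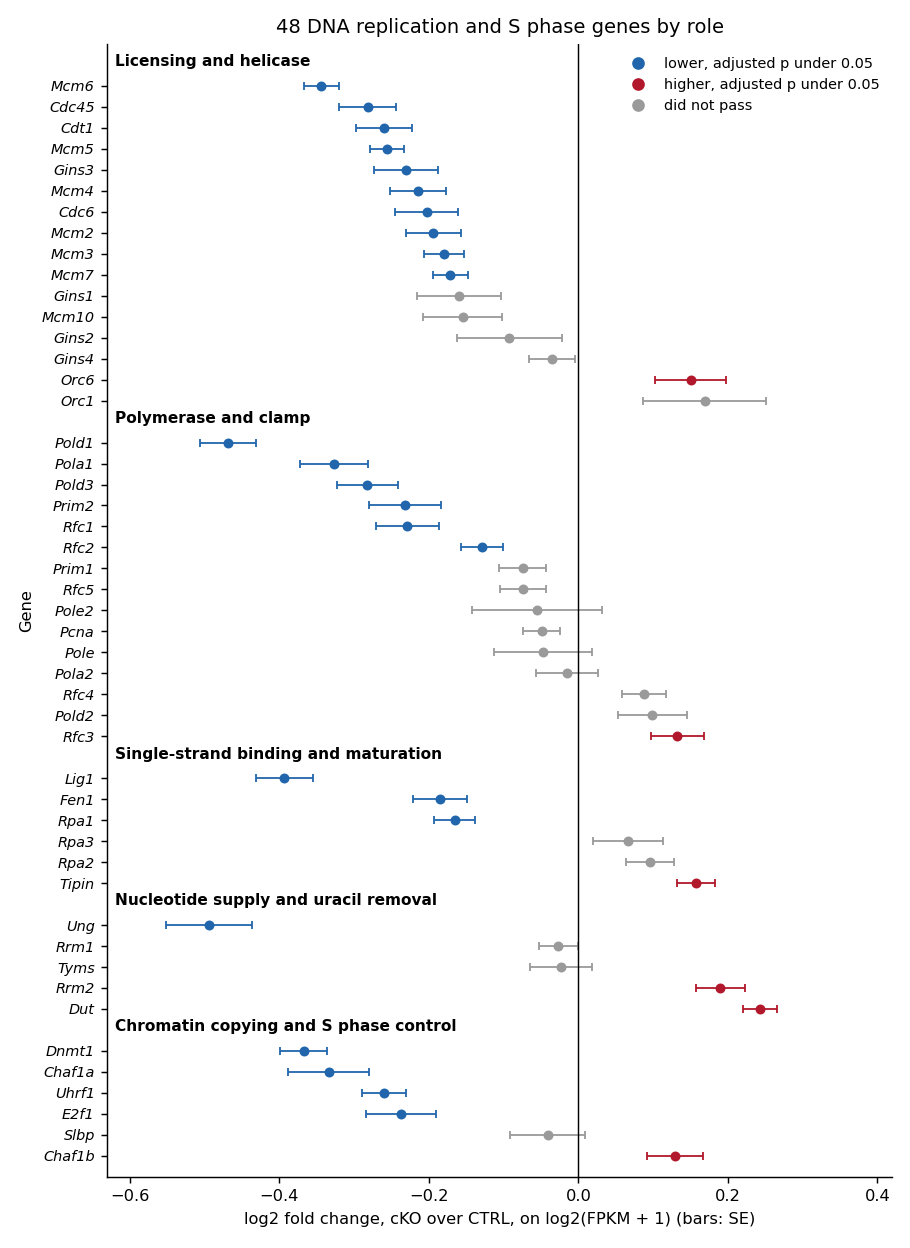
Log2 fold change of each of the 48 genes (x axis, *Myh9*-deficient over control on log2(FPKM + 1), bars are SE, n = 3 per group), sorted within the 5 roles (y axis). Blue genes were lower and red genes higher at an adjusted p under 0.05, and grey genes did not pass. Most points lie left of 0, with *Ung* and *Pold1* farthest left and *Dut* farthest right.

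All 3 *Myh9*-deficient libraries lay below all 3 control libraries for 30 members, where 28.5% of all genes tested did so, and above them for 8 members, where 25.5% of all genes did so. The groups overlapped for 10 members. With 3 libraries per group an exact permutation test cannot go below p = 0.1 (two-sided), a value reached by 38 members. The 24 falls were spread over the roles, with 10 of 16 licensing and helicase genes (median -0.19), 6 of 15 polymerase and clamp genes (-0.07), 3 of 6 single-strand binding and maturation genes (-0.05), 1 of 5 nucleotide supply genes (-0.02) and 4 of 6 chromatin copying and S phase control genes (-0.25). The 6 rises were *Orc6*, *Rfc3*, *Tipin*, *Rrm2*, *Dut* and *Chaf1b*. Under 19 other settings of the test, 21 of the 24 falls passed each time (all but *Fen1*, *Mcm2* and *Rfc2*), as did the rises of *Dut* and *Rrm2*. Scaling by medians of ratios, among these settings, could change little, since the libraries already had equal medians of ratios. The other rises depended more on the setting. *Tipin* passed in 18 of the 19, *Rfc3* in 14, *Chaf1b* in 11 and *Orc6* in 8, and *Orc6*, *Rfc3* and *Chaf1b* all failed to pass without CTRL replicate 2 and without cKO replicate 3.

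**Figure D2:**
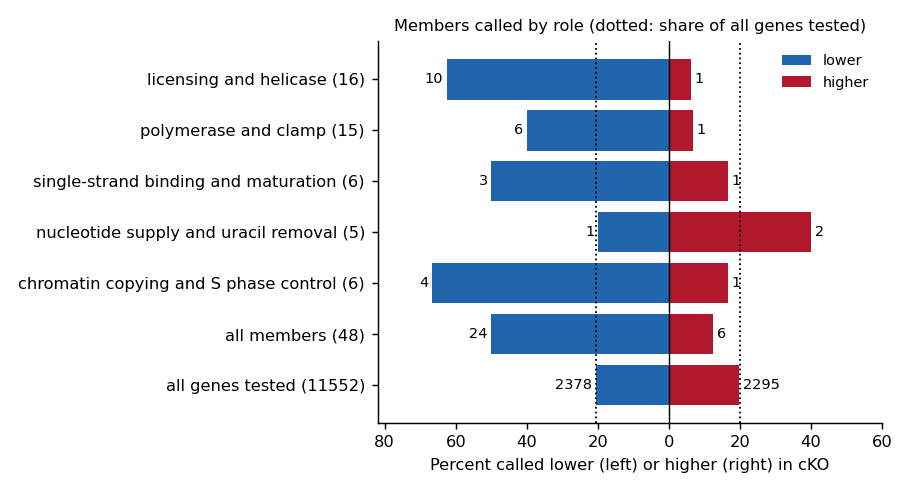
Percent of the genes tested in each role that were called lower (left, blue) or higher (right, red) in *Myh9*-deficient LSKs, with the number of genes at the bar ends and the number tested in brackets; dotted lines mark the shares over all genes tested, 20.6% and 19.9%. The nucleotide supply genes are the role in which more genes rose (2) than fell (1).

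In the licensing and helicase role, all 6 subunit genes of the MCM2-7 helicase fell. *Mcm6* showed the largest fall among them, with 113, 115 and 115 FPKM in the control and 88.4, 90.3 and 90.7 FPKM in the *Myh9*-deficient libraries (log2 fold change -0.34 ± 0.02 SE, adjusted p = 0.000102). *Mcm5* stood at 126, 124 and 125 FPKM in control libraries and 103, 105 and 106 FPKM in *Myh9*-deficient ones (log2 fold change -0.26 ± 0.02 SE, adjusted p = 0.000298). For both genes the highest *Myh9*-deficient library was below the lowest control library by more than the range within either group. *Mcm4*, a catalytic subunit of the ring, was at 51.2, 52.7 and 52.9 FPKM in control libraries and 46.2, 45.9 and 42.7 FPKM in *Myh9*-deficient ones (log2 fold change -0.21 ± 0.04 SE, adjusted p = 0.00503). *Mcm2* was at 52.6, 52.5 and 52.5 FPKM in control libraries, nearly the same in all 3, and 47.1, 46.9 and 43.4 FPKM in *Myh9*-deficient ones (log2 fold change -0.19 ± 0.04 SE, adjusted p = 0.00688). *Mcm2* and *Mcm4* were both lowest in the third *Myh9*-deficient library. *Mcm3* was at 109, 111 and 107 FPKM in control libraries and 96.2, 98.2 and 94.7 FPKM in *Myh9*-deficient ones (log2 fold change -0.18 ± 0.03 SE, adjusted p = 0.00252). *Mcm7* was at 123, 121 and 125 FPKM in control libraries and 109, 109 and 109.5 FPKM in *Myh9*-deficient ones (log2 fold change -0.17 ± 0.02 SE, adjusted p = 0.00173). None of the 6 overlapped between groups. The 6 subunits summed to 577 ± 1.72 FPKM in control libraries and 491 ± 4.37 FPKM in *Myh9*-deficient ones (SD, n = 3), and the summed level changed by -14.9%.

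**Figure D3:**
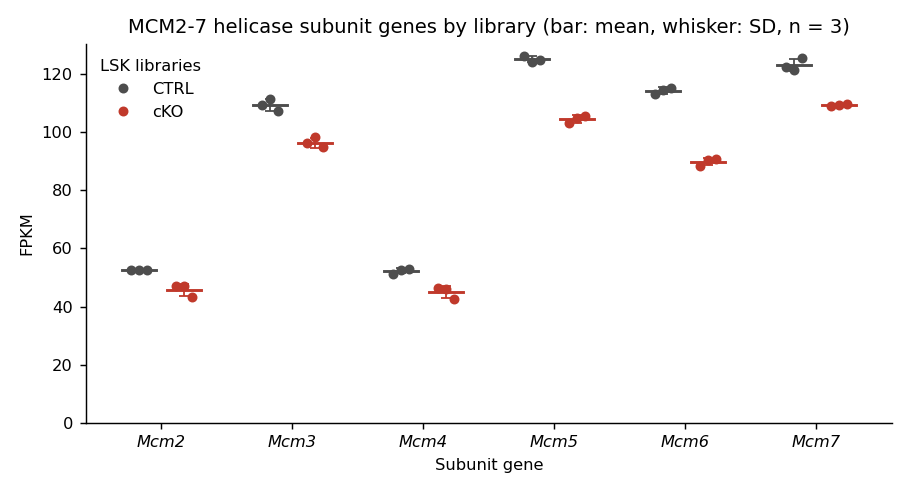
FPKM of the MCM2-7 subunit genes (x axis, level on the y axis from 0) in each control (grey) and *Myh9*-deficient (red) library; bars are means and whiskers SD, n = 3. Every red point lies below every grey point of its gene, and *Mcm6* shows the widest gap, from a mean of 114 to 89.8 FPKM.

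The other parts of the helicase fell in part. *Cdc45*, whose product joins the ring to activate it, was at 22.2, 22.5 and 22.4 FPKM in control libraries and 18.1, 17.6 and 19.2 FPKM in *Myh9*-deficient ones (log2 fold change -0.28 ± 0.04 SE, adjusted p = 0.0018). *Cdt1*, which helps to load the ring, was at 33.8, 35.7 and 35.6 FPKM in control libraries and 29.4, 29.9 and 28 FPKM in *Myh9*-deficient ones (log2 fold change -0.26 ± 0.04 SE, adjusted p = 0.00217). Neither gene overlapped between groups. *Cdc6*, the other loader, fell with a log2 fold change of -0.20 (adjusted p = 0.00903), and *Gins3* with -0.23 (adjusted p = 0.00618). The other GINS genes did not pass, with -0.16 for *Gins1* (adjusted p = 0.0615), -0.09 for *Gins2* (0.335) and -0.04 for *Gins4* (0.395), nor did *Mcm10*, a helicase activator, with -0.15 (0.0562). Of the origin recognition complex, 2 genes are among the 48, and 1 of them passed. *Orc6* was at 24.9, 24.5 and 26.7 FPKM in control libraries and 26.8, 28.9 and 29.1 FPKM in *Myh9*-deficient ones (log2 fold change 0.15 ± 0.05 SE, adjusted p = 0.0432), so that the lowest *Myh9*-deficient library was just above the highest control library, and it passed in 8 of 19 other settings. *Orc1* (log2 fold change 0.17, adjusted p = 0.151) overlapped between groups.

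Among polymerase and clamp genes, the catalytic subunits of 2 polymerases fell, and their partner subunits differed among themselves. *Pold1*, the catalytic subunit of polymerase delta, was at 43.2, 40.2 and 41.5 FPKM in control libraries and 30.1, 30.5 and 28.9 FPKM in *Myh9*-deficient ones (log2 fold change -0.47 ± 0.04 SE, adjusted p = 0.000203). *Pold3*, an accessory subunit of the same enzyme, was at 18.5, 18.5 and 17.4 FPKM in control libraries and 14.9, 14.2 and 15 FPKM in *Myh9*-deficient ones (log2 fold change -0.28 ± 0.04 SE, adjusted p = 0.00222). In contrast to these falls, the log2 fold change of *Pold2*, its second subunit, was 0.10 (adjusted p = 0.131). *Pola1*, the catalytic subunit of polymerase alpha, was at 8.4, 8.45 and 8.7 FPKM in control libraries and 6.23, 6.8 and 6.75 FPKM in *Myh9*-deficient ones (log2 fold change -0.33 ± 0.05 SE, adjusted p = 0.00193). *Prim2*, the large primase subunit, was at 13, 12.9 and 11.7 FPKM in control libraries and 10.5, 10.7 and 10.4 FPKM in *Myh9*-deficient ones (log2 fold change -0.23 ± 0.05 SE, adjusted p = 0.00941). The partners of these 2 genes in the primer-making complex, *Pola2* and *Prim1*, had log2 fold changes of -0.02 (adjusted p = 0.791) and -0.07 (0.1). Polymerase epsilon was represented by *Pole* (-0.05, adjusted p = 0.604) and *Pole2* (-0.06, 0.644), both overlapping between groups and at the lower end of the members' levels (4.68 and 9.29 FPKM in control).

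The clamp and its loader were mixed. *Rfc1*, the large subunit of the loader, fell (log2 fold change -0.23, adjusted p = 0.00586), as did *Rfc2* (-0.13, 0.0114). *Rfc3*, a small subunit, rose from 15.3, 14.4 and 15.1 FPKM in the control to 16.5, 16.2 and 16.7 FPKM in the *Myh9*-deficient libraries (log2 fold change 0.13 ± 0.04 SE, adjusted p = 0.0251). *Rfc4* (0.09, adjusted p = 0.0527) and *Rfc5* (-0.07, 0.0983) did not pass. The clamp gene *Pcna* had the highest level of all members, at 244 to 252 FPKM in control libraries against 235 to 243 FPKM in *Myh9*-deficient ones. Its log2 fold change of -0.05 did not pass (SE 0.02, adjusted p = 0.162). This call depended on the processing. *Pcna* was called lower with GC and length trends removed (-0.11), and also with the reads of the pseudogene described next added.

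A gene model named for the clamp differed by more than any member. *Pcna-ps2* is an intronless, processed pseudogene of *Pcna* on chromosome 19, on the plus strand, at 9283238 to 9284494 in the table and at a shorter interval in GENCODE M21, where no other gene model overlaps it. It was at 30.1, 25.4 and 27.7 FPKM in control libraries and 3.95, 3.32 and 3.68 FPKM in *Myh9*-deficient ones (log2 fold change -2.63 ± 0.08 SE, adjusted p = 3.8e-06). These values rest on 563 to 752 reads per control and 76 to 93 reads per *Myh9*-deficient library, or 5.17% to 5.89% and 0.708% to 0.857% of the reads given to *Pcna* and *Pcna-ps2* together. Over 781 aligned bases, the pseudogene differed from the coding sequence of *Pcna* at 6 positions without a gap (99.2% identity). The stretch of 75 bases in 1 exon with the most differences, 2, is shown from both genes to make plain how few letters separate their reads, with the differing letters in capitals (GENCODE M21, GRCm38).
*Pcna* (chr2:132252860-132252934, minus strand): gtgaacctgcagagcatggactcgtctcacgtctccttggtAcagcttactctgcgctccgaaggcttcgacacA
*Pcna-ps2* (chr19:9283481-9283555, plus strand): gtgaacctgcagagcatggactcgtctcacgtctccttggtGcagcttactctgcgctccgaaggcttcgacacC
How reads that match both genes were counted is not given in the sources used here, so the level of *Pcna-ps2* is uncertain. Set against the reads of *Pcna*, those of the pseudogene came to 5.46% to 6.25% in the control libraries and 0.713% to 0.865% in the *Myh9*-deficient libraries. With them added, an alternative chosen after seeing the data, *Pcna* was called lower in a new fit (log2 fold change -0.12 ± 0.03 SE, adjusted p = 0.0111). Whether the added reads came from *Pcna* was not tested, so this value is no measure of *Pcna* alone.

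In the single-strand binding and maturation role, both genes that finish Okazaki fragments fell. *Lig1*, which encodes the ligase that joins the fragments, was at 48.2, 47.6 and 48.8 FPKM in control libraries and 34.9, 36.1 and 38.3 FPKM in *Myh9*-deficient ones (log2 fold change -0.39 ± 0.04 SE, adjusted p = 0.000439). *Fen1*, the flap nuclease, was at 8.64, 8.69 and 8.8 FPKM in control libraries and 7.72, 7.5 and 7.41 FPKM in *Myh9*-deficient ones (log2 fold change -0.19 ± 0.04 SE, adjusted p = 0.00785). Neither gene overlapped between groups, and the gap was wider for *Lig1*. *Rpa1*, the large subunit of the single-strand binding complex, was at 31.3, 31.7 and 32 FPKM in control libraries and 27.8, 28 and 28.6 FPKM in *Myh9*-deficient ones (log2 fold change -0.17 ± 0.03 SE, adjusted p = 0.00406). The smaller subunits *Rpa2* (0.10, adjusted p = 0.0516) and *Rpa3* (0.07, 0.296) had positive values and did not pass. *Tipin*, whose product protects stalled forks with TIMELESS, rose from 60.9, 59.1 and 60.8 FPKM in control libraries to 68.2, 66.8 and 66.9 FPKM in *Myh9*-deficient ones (log2 fold change 0.16 ± 0.03 SE, adjusted p = 0.00384).

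The nucleotide supply and uracil removal genes held both extremes of the 48. *Ung*, the uracil DNA glycosylase that cuts uracil out of DNA, was at 14.2, 13.3 and 14.8 FPKM in control libraries and 10.4, 9.54 and 9.21 FPKM in *Myh9*-deficient ones (log2 fold change -0.49 ± 0.06 SE, adjusted p = 0.000952). *Dut*, which destroys dUTP before it can be built into DNA, was at 106, 108 and 107 FPKM in control libraries and 127, 125 and 128 FPKM in *Myh9*-deficient ones (log2 fold change 0.24 ± 0.02 SE, adjusted p = 0.000361). These genes act on the same base, before and after it is built in, and moved in opposite directions without overlap between groups. *Rrm2*, the regulatory subunit of ribonucleotide reductase, was at 50.2, 50.4 and 47.2 FPKM in control libraries and 56.4, 56.2 and 56.2 FPKM in *Myh9*-deficient ones (log2 fold change 0.19 ± 0.03 SE, adjusted p = 0.00448), with 3 nearly equal *Myh9*-deficient values. For its large partner *Rrm1* the log2 fold change was -0.03 (adjusted p = 0.453), and for the thymidylate synthase gene *Tyms* it was -0.02 (0.69).

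Among chromatin copying and S phase control genes, the maintenance of DNA methylation was represented by a pair of genes that both fell. *Dnmt1*, the maintenance methyltransferase, was at 51, 51.3 and 50.2 FPKM in control libraries and 37.9, 40.3 and 39.4 FPKM in *Myh9*-deficient ones (log2 fold change -0.37 ± 0.03 SE, adjusted p = 0.000243). *Uhrf1*, which brings it to newly copied DNA, was at 59.9, 59.4 and 58.6 FPKM in control libraries and 48.3, 48.9 and 50.9 FPKM in *Myh9*-deficient ones (log2 fold change -0.26 ± 0.03 SE, adjusted p = 0.000812). Both fell without overlap between groups. The 2 listed subunits of the histone chaperone CAF-1 moved apart. *Chaf1a*, the large subunit, was at 10.6, 10.5 and 9.78 FPKM in control libraries and 8.25, 8.22 and 7.44 FPKM in *Myh9*-deficient ones (log2 fold change -0.33 ± 0.05 SE, adjusted p = 0.00349). *Chaf1b*, the middle subunit, was at 17.3, 17.3 and 18 FPKM in control libraries and 20.1, 18.9 and 18.9 FPKM in *Myh9*-deficient ones (log2 fold change 0.13 ± 0.04 SE, adjusted p = 0.0329). *E2f1*, a transcription factor of the G1 to S transition, was at 21, 22.7 and 21.8 FPKM in control libraries and 17.3, 19 and 18.7 FPKM in *Myh9*-deficient ones (log2 fold change -0.24 ± 0.05 SE, adjusted p = 0.00807), again without overlap. *Slbp*, whose product binds the ends of histone mRNAs, did not pass (log2 fold change -0.04, adjusted p = 0.553).

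To set subunits of one complex side by side, and also the separate enzyme genes *Dut* and *Ung*, the ratio of FPKM values was taken within each library. This ratio does not depend on how the library was scaled. The choice of pairs was made with their values in view, so their ratios are a description with no test. The ratio of *Pold2* to *Pold1* was 1.79 ± 0.150 in control and 2.68 ± 0.123 in *Myh9*-deficient libraries (SD, n = 3). That of *Chaf1b* to *Chaf1a* was 1.71 ± 0.116 and 2.43 ± 0.119, that of *Rfc3* to *Rfc1* 1.14 ± 0.0519 and 1.50 ± 0.0459, and that of *Pola2* to *Pola1* 4.98 ± 0.235 and 6.36 ± 0.361. The ratio of *Rrm2* to *Rrm1* was 1.53 ± 0.0474 in control and 1.79 ± 0.0190 in *Myh9*-deficient libraries. For *Dut* over *Ung* it was 7.60 ± 0.449 and 13.1 ± 0.827. In each of these 6 pairs, every *Myh9*-deficient library was above every control library. Within the MCM2-7 ring the log2 fold changes ran from -0.34 to -0.17, and the ratio of *Mcm6* to *Mcm7* was 0.928 ± 0.0136 in control and 0.822 ± 0.00919 in *Myh9*-deficient libraries.

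**Figure D4:**
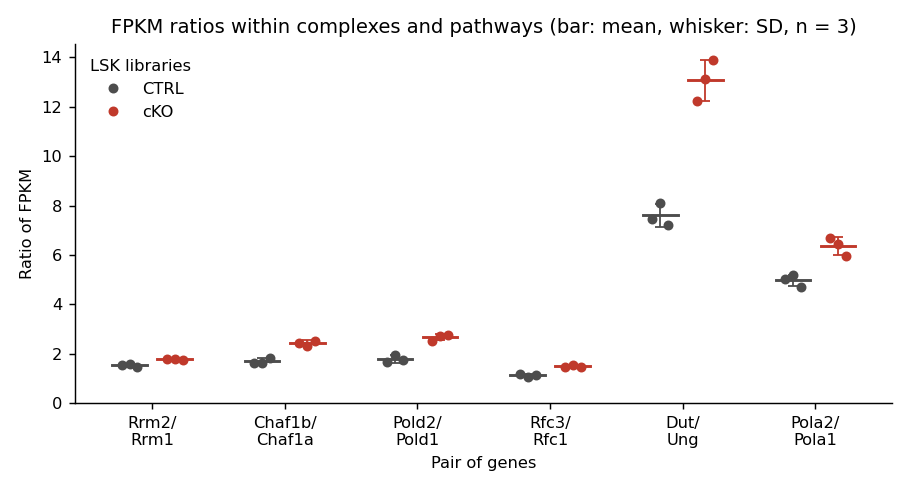
Ratio of the FPKM values of 2 genes within each library (y axis, from 0) for 6 pairs (x axis), in control (grey) and *Myh9*-deficient (red) libraries; bars are means and whiskers SD, n = 3. The red points of each pair lie above its grey points, with the widest gap for *Dut* over *Ung*.

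Gene length moved with the direction of change, in all genes and in the members. The 6 members that rose had a median length of 2620 bases and the 24 that fell one of 4634 bases, with a median GC content of 45.7% and 51.1%. Over all genes tested, the median log2 fold change went from 0.11 in the shortest quintile of genes (up to 1599 bases) to -0.09 in the longest (from 6633 bases). In the middle quintile of genes by length, 9 of 13 members were called lower, against 22.5% of all genes there, in the next quintile 9 of 13 against 26.4%, and in the longest quintile 4 of 7 against 28.6%. In the quintile below the middle, 2 of 11 members were lower and 4 higher, against 17.1% and 30.004% of all genes. In the shortest quintile 0 of 4 members were called, where 8.39% of all genes were lower and 26.6% higher. After removal of the trends of GC content and gene length from every library, 26 members were lower and 4 higher, where 18.1% and 19.4% of all genes were, and the median over the members was -0.11. *Orc6*, *Rfc2* and *Tipin* then no longer passed, while *Gins1*, *Gins4* and *Pcna* were called lower.

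**Figure D5:**
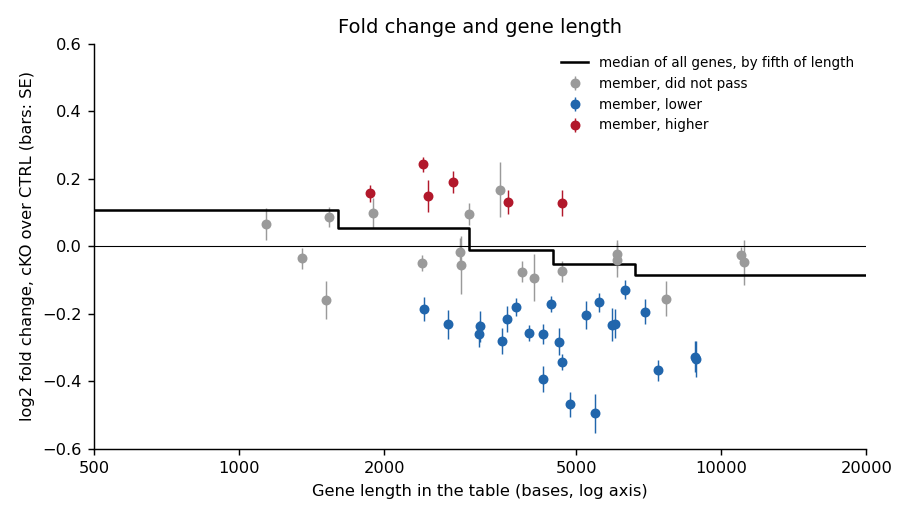
Log2 fold change (y axis, bars are SE, n = 3 per group) of the 48 genes against gene length in the table (x axis, bases, log axis); colours give the call, and the black steps are the median of all genes tested in each quintile of length, from 0.11 to -0.09. The genes that fell lie below the steps, and those that rose lie above them.

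Some members share sequence with other genes, and the library kit named in the labels does not mark the strand. On transcripts of GENCODE M21, 70.5% of the 31-base words of *Gins2* also lie, on the other strand, in *Gse1*, whose reads came to as much as 88.0% of those of *Gins2*, so the level of *Gins2* is uncertain. Words of *Chaf1a* were shared with *Ubxn6* (48.6%) and those of *Rfc2* with *Lat2* (18.6%), with reads up to 33.5% and 19.1% of those of the member. *Gse1* was itself lower (log2 fold change -0.20, adjusted p = 0.0124), and *Ubxn6* and *Lat2* did not pass the test (0.01 and -0.11). *Fen1* shared 80.3% with *Gm10143*, which was at no more than 0.274 FPKM, and *Uhrf1* 26.5% with *Gm5648*, at no more than 0.471 FPKM. *Mcm7* shared 37.6% with *Gm5487*, which was not analysed here. Of the words of *Rrm2*, 15.4% lay in other genes on the same strand. Of those of *Rfc4*, 12.5% lay in *Eif4a2* on the other strand. The reads of these other genes were not compared with those of the member, and further members had similar shares.

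Other genes of the same pathways, from lists that hold no member, moved in both directions. Of 57 other replication genes, 13 were lower and 7 higher (22.8% and 12.3%, beside 20.6% and 19.9% of all genes tested, median -0.07), with 2 of 17 origin and helicase genes, 6 of 18 polymerase and clamp genes and 5 of 22 fork and maturation genes among the falls. *Pclaf*, which encodes a PCNA-binding protein, fell from a mean of 44.0 ± 1.18 FPKM to 31.1 ± 0.496 FPKM (SD, n = 3, log2 fold change -0.49, adjusted p = 7.71e-05), followed by *Top3a* (-0.34) and *Brca1* (-0.30). The largest rises were those of *Orc2* (0.28), *Poldip2* (0.24) and *Dbf4* (0.24), the activator of the origin-firing kinase CDC7. Of 33 other nucleotide supply genes tested, 14 were higher and 7 lower (median 0.10), shares of 42.4% and 21.2% beside the same background. The kinase gene *Nme1* (0.32), the adenine salvage gene *Aprt* (0.27) and the folate enzyme gene *Mthfd1* (0.27) led the rises, and *Ctps2* (-0.32), *Prps2* (-0.22) and *Dck* (-0.22) led the falls. Of 14 other chromatin copying genes, 4 were higher (28.6%), led by *Pcgf6* (0.30), *Asf1a* (0.24) and *Rbbp7* (0.11), and 3 lower (21.4%), *Tonsl* (-0.27), *Rbbp4* (-0.22) and *Cdca7* (-0.15), with a median of -0.06. *Rbbp4* encodes the small subunit of CAF-1.

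Genes of mitosis and cytokinesis, which act later in the same cell cycle, were set beside the replication genes. Of 50 such genes, 9 were higher and 9 lower (18% each), with a median of -0.02, where 24 of 48 replication genes were lower and their median was -0.16. The difference between these lists was not tested. Centred on the median of the mitosis genes, 21 members were lower and 3 higher, where 15% of all genes were lower and 16.9% higher.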

How the data were processed

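RNA-seq libraries were made with a TruSeq kit that does not mark the strand, and the submitters' processing notes name HISAT2 2.0.5 and the mm10 build. The counting program and its treatment of shared reads are not given in the sources used here. The authors deposited FPKM values with gene lengths for 54532 genes, 1 column per library, with no replicates pooled. Multiplied by gene length, 100% of values came out as whole reads (within 0.01 read), which gives the depth behind a value, and the libraries had equal medians of ratios. Intervals from reads would cover counting error only.

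The 11552 genes averaging 1 FPKM or more were tested with limma 3.58.1 (lmFit, eBayes with trend, R 4.3.3) on log2(FPKM + 1), a scale that understates the change of low genes, two-sided, with Benjamini-Hochberg adjustment over all genes tested. Adjusted p-values in the text come from this test, unless another setting is named beside them. The test was first tried on simulated data, with the same spread setting for every gene. Single members were also compared by an exact permutation test. The gene lists were written by hand, and the 48 members and all lists were chosen with earlier results of these data known. Values in all libraries are given for the 4 largest changes per role among members that passed, for members that passed against most of their role, for the MCM2-7 genes, for *Myh9* and for the pseudogene model *Pcna-ps2*. From other lists at most 3 genes are named in each direction. Alternatives were another pseudocount, filter, scaling, moderation, a replicate block, leaving out each library, voom on the recovered reads, removal of GC and length trends, centring on mitosis genes, leaving out antigen receptor segments, and the 2-fold threshold. Adding the reads of *Pcna-ps2* to *Pcna* was chosen after seeing the data. Shared sequence was counted as 31-base words on GENCODE M21 transcripts. Python 3.11.15 with pandas 2.3.3 was used.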

Additional observations from a re-analysis of the deposited data

How the results depend on the processing

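Of the 24 members that fell, 21 passed in the same direction under all 19 alternatives with an adjusted p, as did 2 of the 6 that rose (*Dut* and *Rrm2*), and 0 members were called in the opposite direction. Under the threshold of more than 2-fold with an unadjusted p under 0.05, 0 members were lower and 0 higher, and 165 genes of all tested were higher and 81 lower. Centred on the mitosis genes, 3 members were higher; leaving out 1 library gave 3 to 6 higher and 24 to 25 lower. Of the other rises, *Orc6* passed in 8 of 19 settings, *Chaf1b* in 11, *Rfc3* in 14 and *Tipin* in 18; *Orc6* was lost under scaling, filter and moderation choices as well as without single libraries, and *Chaf1b* also under the replicate block. *Myh9* kept its call in all 19, at -0.12 with GC and length trends removed. With the reads of *Pcna-ps2* added, chosen after seeing the data, *Pcna* was called lower (-0.12). The origin of those reads was not tested. The member median was -0.17 with a pseudocount of 0.1 or quantile normalization, -0.18 with the same sum per library, -0.15 with voom, -0.11 with GC and length trends removed, -0.14 centred on the mitosis genes, and -0.16 to -0.14 without 1 library. The cause of these moves was not tested. Members that had not passed and changed sign when 1 library was left out were *Pola2* (-0.0472 to 0.0116), *Pole* (-0.103 to 0.00962), *Pole2* (-0.136 to 0.0212) and *Tyms* (-0.0532 to 0.000508). *Pola2* was at 0.00511 with voom, and with GC and length trends removed *Pole* was at 0.0565, *Rfc4* at -0.0261, *Rpa3* at -0.0376, *Rrm1* at 0.0579, *Slbp* at 0.0070 and *Tyms* at 0.0291. A replicate block gave 24 lower and 5 higher members, and 2044 lower and 2063 higher genes; deviations of same-numbered libraries correlated at -0.026 to -0.005, so the numbers were not taken as pairs. Count-based edgeR and DESeq2 fits were not run, and voom was the only fit made on the recovered reads. Depth limits the low members most, with 268 reads for *Orc1* in one library.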

Other observations

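Control of the G1 to S transition was looked at beside the replication genes, with 26 of 27 listed genes tested. In *Myh9*-deficient LSKs, 4 were higher (15.4%), 6 were lower (23.1%) and 16 did not pass, and their median log2 fold change was -0.10. Of all genes tested, 19.9% were higher and 20.6% lower. *Ccne1*, which encodes a cyclin of the G1 to S transition, rose from 9.36 ± 0.695 to 12.2 ± 0.717 FPKM (SD, n = 3, log2 fold change 0.35, limma adjusted p = 0.00538). *E2f4*, an E2F factor best known as a repressor, rose from 52.0 ± 0.981 to 62.8 ± 1.72 FPKM (0.27, adjusted p = 0.000907), and the S phase cyclin gene *Ccna2* from 37.1 ± 0.962 to 42.2 ± 0.937 FPKM (0.18, adjusted p = 0.00533). *Cdkn1a*, which encodes the cell cycle inhibitor p21, fell from 13.1 ± 1.33 to 8.64 ± 0.690 FPKM (-0.55, adjusted p = 0.00265). *E2f2* fell from 3.77 ± 0.421 to 2.40 ± 0.356 FPKM (-0.49, adjusted p = 0.00952) and *Rb1*, the retinoblastoma gene, from 3.68 ± 0.176 to 2.77 ± 0.254 FPKM (-0.31, adjusted p = 0.0116).

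Mitosis genes held changes in both directions of about the same number. *Pttg1*, which encodes securin, had a log2 fold change of 0.50, *Cenpa*, the centromere histone gene, one of 0.44, and *Ube2c*, a ubiquitin enzyme gene of mitotic exit, one of 0.37. *Top2a*, the topoisomerase gene, fell by 0.36 on the log2 scale, *Foxm1*, a transcription factor gene of G2 phase, by 0.31, and *Racgap1*, a cytokinesis gene, by 0.28.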
